A study of Rattus norvegicus with 28 samples.

Results

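Of the 56810 consensus regions of open chromatin measured in rat dorsal root ganglia (DRG), 321 were more accessible after inflammation of the hind paw, and these 321 regions are described here. They were selected on the CFA comparison itself: an unadjusted limma p below 0.001 (two-sided) between 6 CFA and 3 naïve libraries, with the CFA mean the higher. Selection at this threshold took 0.565% of all regions, and 316 regions passed it in the opposite direction. The Benjamini-Hochberg adjusted limma p of the 321 lay between 0.0858 and 0.0886, so 0 of them passed an adjusted p of 0.05 although all carried an unadjusted p below 0.001. This depended on the fit: 287 of the 321 were gained at an adjusted limma p below 0.05 when the prior variance followed coverage, and 243 when only the upper 75% of regions by level were tested. The number was 0 with a robust prior, sample weights, cyclic loess or 15 libraries normalized together. All these fits used the libraries that chose the regions. The fold changes after CFA given for them are therefore a description of the selected regions and not a test.

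Each ATAC-seq library came from the ipsilateral lumbar DRGs of 1 adult male Sprague-Dawley rat, 12 weeks of age. CFA rats (n = 6) were taken 48 h after an intraplantar injection of complete Freund's adjuvant, an emulsion of killed mycobacteria that causes lasting inflammation of the paw. CCI rats (n = 6), used for comparison, were taken 14 days after loose ligatures were tied around the sciatic nerve, and naïve rats (n = 3) had no injury. The labels give no genetic modification in any group, and the whole ganglion was used, so the cells of each library are mixed. The CFA libraries whose replicate numbers could not be matched to a sample are called CFA a and CFA b, and the others carry the numbers 3 to 6.

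The DRG holds the cell bodies of the sensory neurons that serve the paw, wrapped by satellite glia and joined by Schwann cells, vessels and immune cells. ATAC-seq marks open chromatin by the places where the Tn5 transposase can insert adapters, and open regions away from gene starts often act as enhancers. In a whole ganglion a more accessible region and a larger share of the cells in which it is open cannot be told apart. In the 2 CFA RNA-seq libraries that were analysed, the 9 sensory neuron markers with a paired gene identifier lay between 362 and 11580 CPM (counts scaled by library size), with Nefm, a neurofilament subunit, the highest. Of the glial markers only Gja1, a gap junction protein of satellite glia, could be paired, at 39.7 ± 1.09 CPM (SD, n = 2). The markers of immune cells and of muscle could not be paired with identifiers and were not analysed here.

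The study cloned 3 of the gained regions as candidate enhancers, and the primers define exactly which DNA was taken for testing. All of each region lay inside its construct. The sequences below run 5′ to 3′, with the bases that follow the restriction site in capitals, and the tail up to and including that site, MluI in the left and BglII in the right primer, in lower case.
Mtdh region, left: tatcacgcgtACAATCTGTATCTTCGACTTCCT
Mtdh region, right: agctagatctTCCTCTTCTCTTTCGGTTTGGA
Rrm2b region, left: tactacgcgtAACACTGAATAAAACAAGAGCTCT
Rrm2b region, right: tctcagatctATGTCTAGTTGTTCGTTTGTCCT
Arap2 region, left: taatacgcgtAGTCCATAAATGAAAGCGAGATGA
Arap2 region, right: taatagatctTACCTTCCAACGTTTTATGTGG

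Coverage is given throughout as the deposited normalized coverage on a log2 scale, so a difference of 1 is a doubling. The Mtdh region, 548 bp on chromosome 7 from 72282656 to 72283204 (rn6), is named for its nearest gene, which encodes the adaptor protein metadherin. Its 3 naïve libraries stood at 4.05, 4.57 and 4.44, and its CFA libraries ran from 5.19 through a median of 5.35 to 5.6. Every CFA library lay above every naïve library there, and the log2 fold change was 1.0 ± 0.14 (SE). In the CCI table, which was normalized separately, the same naïve libraries stood at 3.85, 4.37 and 4.26 and the CCI libraries ran from 4.67 through 5.07 to 5.27, a log2 fold change of 0.87 ± 0.19 (SE).

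The Rrm2b region, 414 bp on chromosome 7 from 76825894 to 76826308, lies nearest the gene of a ribonucleotide reductase subunit. Naïve coverage was 4.57, 4.69 and 4.78, and CFA coverage ran from 5.07 through a median of 5.45 to 5.73. The groups did not overlap, with CFA a the closest to the naïve libraries, and the log2 fold change was 0.75 ± 0.15 (SE) after CFA and 0.95 ± 0.20 (SE) after CCI. The Arap2 region, 358 bp on chromosome 14 from 48665324 to 48665682, lies nearest the gene of that name. Its naïve libraries stood at 3.68, 4.28 and 3.6 and its CFA libraries ran from 4.49 through 4.84 to 5.15, so that the groups stayed apart by 0.21, with naïve replicate 2 nearest the CFA libraries. The log2 fold change was 0.96 ± 0.20 (SE) after CFA and 1.10 ± 0.26 (SE) after CCI.

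**Figure D1:**
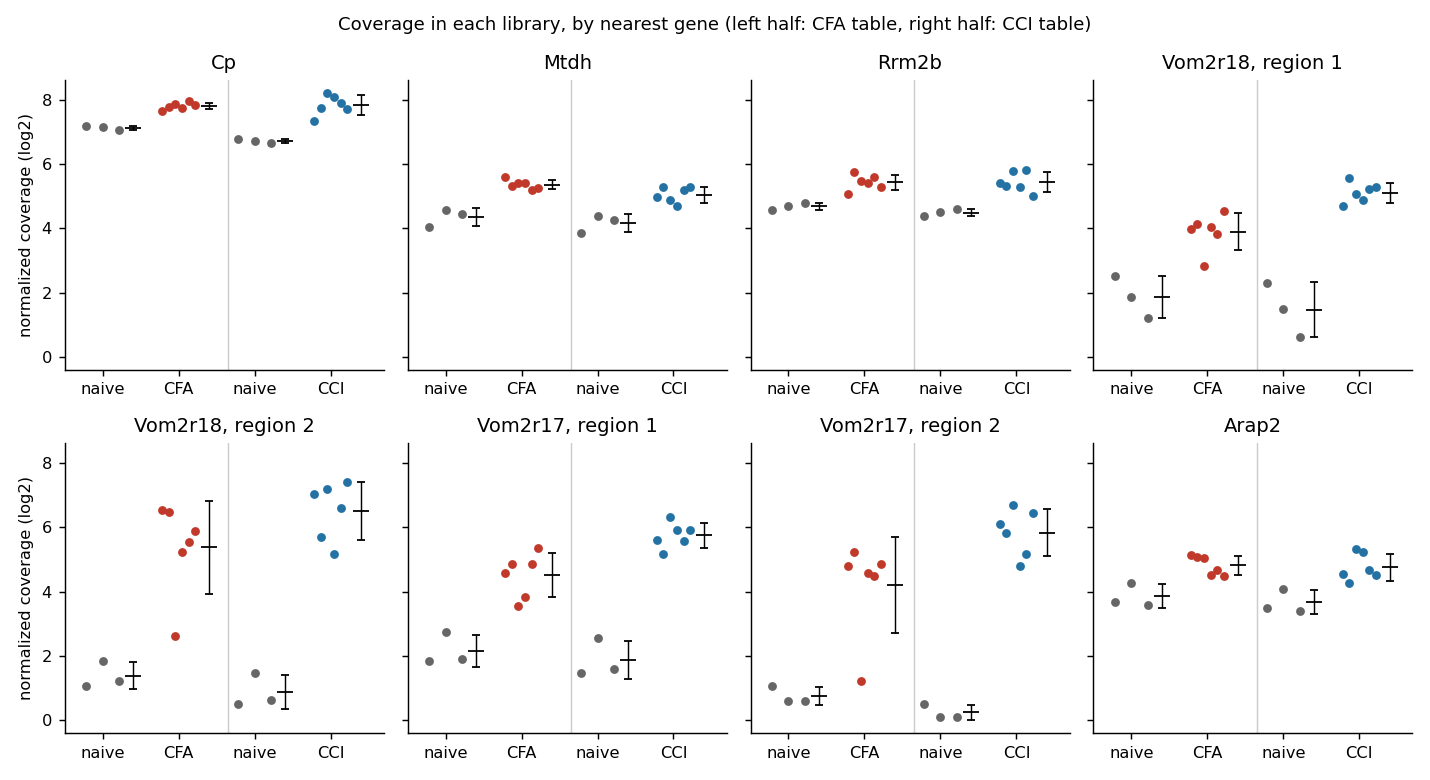
Normalized coverage (log2) of each library at 8 of the gained regions, named by their nearest gene; points are libraries, bars the mean and SD (n = 3 naïve, 6 CFA, 6 CCI), with the CFA table on the left and the CCI table on the right of each panel. At the regions near Vom2r17 and Vom2r18 the naïve libraries lie below 3 and CFA replicate 3 sits at the foot of its group, whereas the CFA libraries at the Mtdh region lie within 0.41 of each other.

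Most of the gains were modest. The median log2 fold change of the 321 regions was 0.66, or 1.58-fold, with quartiles of 0.57 and 0.77. The smallest was 0.46, or 1.38-fold, and 21 regions exceeded 1. Over all 56810 regions the median was 0.01, and 53 regions exceeded 1. In 319 of the 321 every CFA library lay above every naïve library, a pattern found in 5.39% of all regions and one that the selection favours, with a median gap of 0.30 between the lowest CFA and the highest naïve library. The other 2 regions were tied: on chromosome 1 from 85168437 to 85168681 CFA replicate 3 and naïve replicate 1 both stood at 5.18, and on chromosome 2 from 127219457 to 127219680 CFA a and naïve replicate 1 both stood at 3.97.

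The smallest p belonged to the narrowest of the 321, 154 bp on chromosome 8 from 55135611 to 55135765 (unadjusted limma p = 3.78e-06). Naïve coverage there was 2.71, 3.04 and 3.18, and CFA coverage ran from 3.97 through 4.45 to 4.70, a log2 fold change of 1.44 ± 0.17 (SE). The next in order were a region of 405 bp on chromosome 6 from 107364509 (0.85 ± 0.11), one of 234 bp on chromosome 12 from 24232652 (1.25 ± 0.18), one of 242 bp on chromosome 11 from 62555194 (1.06 ± 0.15) and the Mtdh region. Each of these 5 stayed below the threshold in all 9 fits that left out 1 library. The other 2 of the 3 narrowest regions, 160 bp on chromosome 8 from 75523608 and 182 bp on chromosome 16 from 3655944, rose by 0.84 and 0.75.

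Regions at the edge of the selection looked much like those beyond it. The 3 regions just inside lay on chromosome 5 from 148265847, chromosome 20 from 29536910 and chromosome 1 from 85168437, with p of 0.000996, 0.000995 and 0.000994 by limma and log2 fold changes of 0.56, 0.48 and 0.74. Just outside were regions on chromosome 16 from 71074831, chromosome 10 from 98754464 and chromosome 1 from 204888458, with log2 fold changes of 0.51, 0.69 and 0.81. At the first of these the naïve libraries reached 5.11 and the lowest CFA library stood at 5.32.

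The gained regions came from both ends of the range of naïve coverage. When all regions were ranked by their naïve mean and split into 10 bins of equal size, 82 of the 321 fell in the lowest bin and 75 in bin 9, against 13 in each of bins 3, 4 and 5. The lost regions had no such low group, with 10 of 316 in the lowest bin and 68 in the highest. Naïve coverage is itself a term of the comparison, and over all regions the median log2 fold change after CFA was 0.21 in the lowest bin and -0.03 in the highest. Ranked instead by their coverage in the CCI libraries, which the selection did not use, 37 of the 321 fell in the lowest bin and 60 in the highest, with 15 to 19 in each of bins 5, 6 and 7. Of the 316 lost regions, 30 fell in the lowest bin of that ranking and 42 in the highest, so the contrast at the low end was small there.

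**Figure D2:**
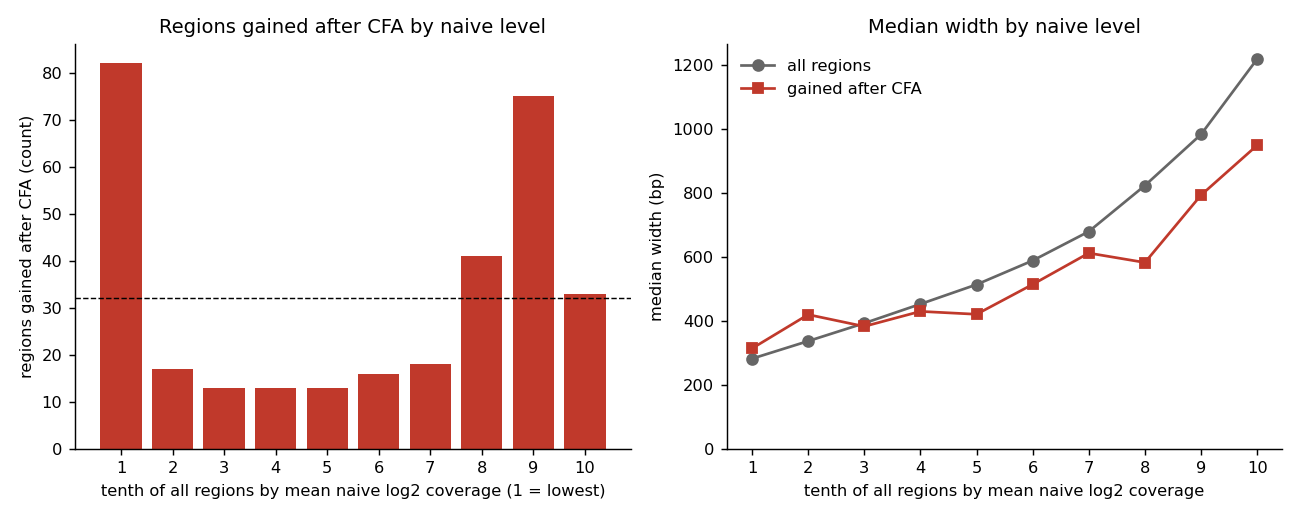
Left, number of the 321 gained regions in each of 10 equal bins of all 56810 regions ranked by mean naïve log2 coverage, with the dashed line at an even split; right, median width (bp) of all regions and of the gained regions in each bin. The counts peak at 82 in the lowest bin and 75 in bin 9, and in the highest bin the gained regions had a median width of 950 bp against 1220 bp for all regions.

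Low and high regions differed in size and spread as well. In the lowest quartile of naïve coverage, below 4.96, there were 106 gained regions with a median width of 330 bp, close to the 322 bp of all regions in that quartile. In the highest quartile, above 6.86, the 128 gained regions had a median width of 802 bp against 1053 bp for all regions there. The median log2 fold change after CFA was 0.83 in the lowest quartile and 0.59 in the highest, and the median SD over the CFA libraries was 0.22 and 0.11. Over the whole set the median width was 534 bp, against 549 bp for all regions, 880.5 bp for the lost regions and 451.5 bp for the regions gained after CCI.

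Only 1 gained region reached 1500 bp, against 26 of the 316 lost regions (8.23%), 16 of the 426 regions gained after CCI (3.76%) and 2.85% of all regions. It lay on chromosome 10 from 17248924 to 17250463 and was 1539 bp wide, with naïve coverage of 9.02, 9.14 and 9.29 and CFA coverage from 9.53 through 9.68 to 9.69. The next widest, 1374 bp on chromosome 3 from 149887147 and 1357 bp on chromosome 17 from 5921095, rose by 0.57 and 0.72. The most open of the gained regions in naïve ganglia were on chromosome 3 from 171505928 (naïve mean 9.22), the wide region on chromosome 10 (9.15) and chromosome 10 from 55681273 (9.11), and all 3 rose by between 0.49 and 0.61.

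This balance of low and high regions depended on single libraries, most of all on naïve replicates 1 and 2. With naïve replicate 1 left out the selection gave 193 regions, 64.2% of them in the lowest quartile of naïve coverage and 6.74% in the highest, and with naïve replicate 2 left out it gave 138 regions, 68.1% and 7.97%. Without naïve replicate 3 it gave 316 regions, 30.1% and 41.8%, close to the complete set. With 1 CFA library left out, between 36% and 49.4% lay in the lowest quartile, against 33.0% with every library. The share in the highest quartile was then 23.9% to 35.2%, against 39.9% with every library. When the prior variance of limma was allowed to follow coverage, 1203 regions were gained, 77.7% of them in the highest quartile and 6.07% in the lowest. In each of these selections the median width of the high regions was below the 1053 bp of all regions in that quartile. It lay between 750 and 870 bp in the fits without 1 library and was 918 bp with the trend. The selections overlap, and few regions stood behind the medians without naïve replicate 1 (6.74% of 193) and naïve replicate 2 (7.97% of 138).

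Gained regions were unevenly spread over the chromosomes. Chromosome 10 held 35 of them, 10.9% against 6.02% of all regions, and chromosome 12 held 26, 8.10% against 2.71%. Together these 2 chromosomes held 19.0% of the gained regions, 2.85% of the lost regions, 4.23% of the regions gained after CCI and 8.73% of all regions. The share was 11.3% among the gained regions of the lowest quartile of naïve coverage (6.36% of all regions there) and 24.2% among those of the highest (10.8%). Chromosome 4 showed the reverse, with 7 gained regions (2.18%) and 34 lost regions (10.8%), against 5.88% of all regions. The X chromosome held 2 gained regions (0.623%), against 1.68% of all regions. In the selections that left out 1 library chromosomes 10 and 12 kept between 11.6% and 20.9% of the gained regions.

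**Figure D3:**
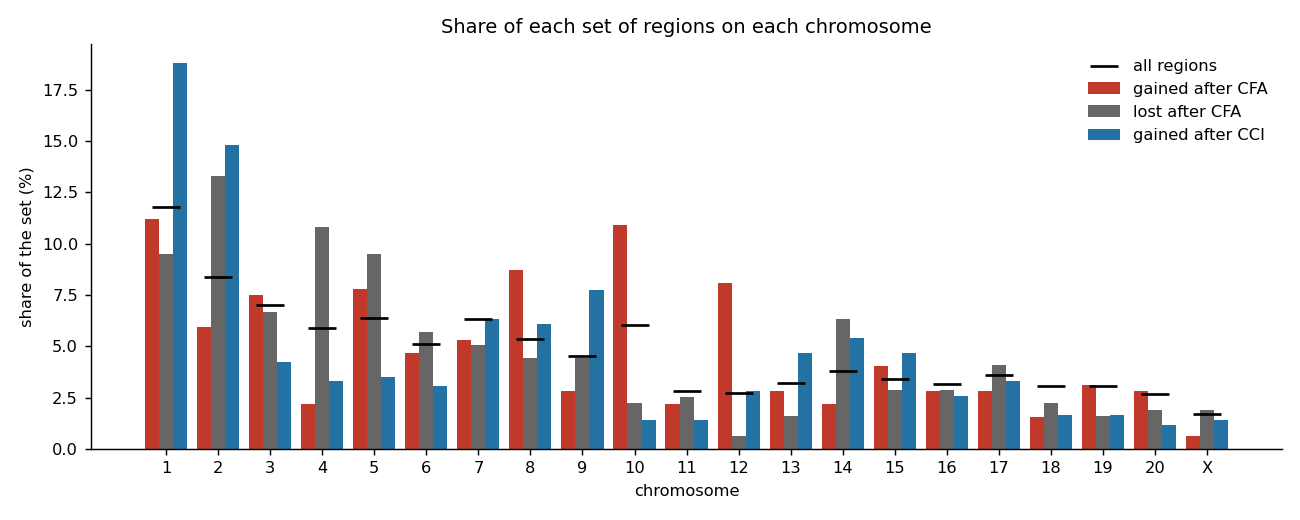
Share (%) of the regions gained after CFA (321), lost after CFA (316) and gained after CCI (426) on each chromosome, with a black line for all 56810 regions. The CFA gains stand furthest above the line on chromosomes 8, 10 and 12 and lie below it, among others, on chromosomes 2, 4, 9 and 14.

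Along the chromosomes 67 of the 321 regions (20.9%) lay within 100 kb of another gained region, and 26 lay within 10 kb. The corresponding share within 100 kb was 6.96% for the lost regions and 44.1% for the regions gained after CCI. Most of the neighbours came in pairs: there were 27 pairs, 3 groups of 3 and 1 group of 4, and 254 regions stood alone. The number within 100 kb was 9 without naïve replicate 2, when only 138 regions were selected, 15 without naïve replicate 1 and 72 without naïve replicate 3. It lay between 13 and 28 when any 1 of the CFA libraries was left out. As shares of the regions then selected, these were 6.52%, 7.77% and 22.8% without naïve replicates 2, 1 and 3. Without 1 CFA library the share was 7.39% to 12.7%. The share of 20.9% thus depended on single libraries, and the selections differed in size.

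The group of 4 lay on chromosome 8 from 4288257 to 4338234, within 50 kb that held no other consensus region, beside Vom2r18 and Vom2r17, which encode vomeronasal pheromone receptors. It had the 4 largest fold changes of the whole set. At the region from 4292048 the naïve libraries stood at 1.07, 1.85 and 1.21, toward the lowest naïve mean of any consensus region, which was 0.54, and the CFA libraries at 6.55 in CFA a, 6.48 in CFA b, 2.63 in replicate 3, 5.22 in replicate 4, 5.54 in replicate 5 and 5.88 in replicate 6. The log2 fold change was 4.01 ± 0.71 (SE), or 16.1-fold. Replicate 3 stood apart from the other CFA libraries there, and still above the naïve libraries.

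At the region from 4337259 the naïve libraries stood at 1.07, 0.59 and 0.59, and the CFA libraries at 4.79, 5.24, 1.21, 4.58, 4.49 and 4.85 in the same order. Naïve replicates 2 and 3 stood there at the lowest value of their columns, in the CCI table too, so the log2 differences of this region, 3.45 after CFA and 5.59 after CCI, are limited by that floor. Here replicate 3 came within 0.14 of naïve replicate 1. The regions from 4288257 and 4322772 rose by 2.03 ± 0.35 (SE) and 2.35 ± 0.37 (SE), again with replicate 3 the lowest CFA library. Without replicate 3 the log2 fold changes of the 4 regions were 2.24, 4.56, 2.54 and 4.04 in order along the chromosome. In the CCI table the 4 regions rose by between 3.64 and 5.64, and the CCI libraries, from 4.67 at the lowest, all lay above the naïve libraries, which reached 2.55.

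The groups of 3 were of another kind. On chromosome 3 from 171500911 to 171506878, 3 adjacent consensus regions with none between them rose by 0.59, 0.61 and 0.61, from naïve means that are among the highest of the set. On chromosome 1 from 217077518 to 217211245, 3 of 8 consensus regions were gained, by 0.63 to 0.70. On chromosome 10 from 40758894 to 40773434, 3 of 4 were gained, by 0.52 to 0.67. After CCI these 9 regions had log2 fold changes between -0.12 and 0.40, and none of them had an unadjusted limma p below 0.001.

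Regions around the gained ones also lay higher in the CFA libraries. Consensus regions next to a gained region, but not themselves selected, had a median log2 fold change after CFA of 0.24 when they lay under 2 kb away (n = 72), 0.18 at 2 to 10 kb (n = 223), 0.09 at 10 to 100 kb (n = 280) and -0.07 beyond 100 kb (n = 31). Of the 72 nearest, 59 (81.9%) were higher after CFA, against 50.8% of all regions. The same 72 neighbours had a median of -0.08 in the CCI table, where all regions had a median of -0.04. Neighbours of lost regions under 2 kb away had a median of -0.35 after CFA (n = 44). Adjacent regions share libraries and normalization, so these neighbours are not independent of the regions selected. The value for the nearest neighbours was 0.07 when naïve replicate 2 was left out of the selection, and 0.15 to 0.25 in the other selections.

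**Figure D4:**
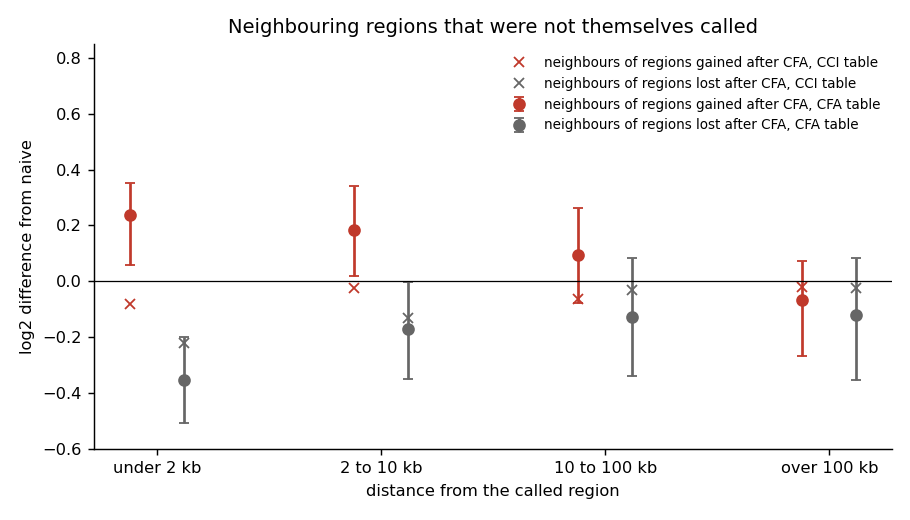
Log2 difference from naïve of consensus regions that were next to a gained or a lost region and not selected themselves, by distance; points are medians, bars the quartiles after CFA, and crosses the medians of the same neighbours in the CCI table. Neighbours of gained regions fall from a median of 0.24 under 2 kb to -0.07 beyond 100 kb after CFA, and lie at or below 0 in the CCI table.

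Averaged over the 321 regions, coverage was 6.01, 5.97 and 6.09 in the naïve libraries and 6.68 in CFA a, 6.79 in CFA b, 6.73 in replicate 3, 6.73 in replicate 4, 6.79 in replicate 5 and 6.78 in replicate 6. CFA a was the lowest of the 6 at 100 regions and the highest at 22, and replicate 6 was the highest at 79. Among the naïve libraries replicate 3 was the highest at 172 regions and replicate 2 the lowest at 154. The largest SDs over the CFA libraries were 1.49, 1.44 and 0.68, all in the group on chromosome 8, against a median of 0.14 over the set.

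Selecting again without 1 library showed how far the regions then chosen rose in a library that their selection had not seen. Those regions were only in part the 321. Without naïve replicates 1, 2 and 3, 85 of 193, 74 of 138 and 148 of 316 were among them. Regions chosen without 1 CFA library had a median log2 fold change of 0.70 to 0.73 in the fit. In the library left out the median was 0.51 (CFA a) to 0.69 (replicate 5), against the same naïve libraries that chose the regions. These values are therefore not independent of the selection. Regions chosen without naïve replicate 1, 2 or 3 had medians of 0.86, 0.84 and 0.78 in the fit, and of 0.36, 0.44 and 0.33 against the naïve library left out. The CFA libraries compared there had also chosen the regions. When a naïve and a CFA library were both left out, the difference between those 2 libraries at the chosen regions had a median of 0.27 over the 18 pairs, ranging from 0.18 to 0.37. These sets held 94 to 237 regions, of which 41 to 111 were among the 321. Over all regions the same difference lay between -0.01 and 0.02. The excess over all regions was present in every one of the 18 pairs, at well under the size seen in the fits. These pairs cross the same 3 naïve and 6 CFA libraries, so they are not 18 independent comparisons. Over the 6 pairs of each naïve library the median was 0.24, 0.29 and 0.30 for replicates 1, 2 and 3. Of the 321 regions, 34 passed the threshold in all 9 fits that left out 1 library, 138 passed it in at most 2, and 15 in 0.

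The same regions were then read in the CCI table. Of the 321, 21 were also gained there at an unadjusted limma p below 0.001, which is 6.54% of the set and 4.93% of the 426 regions gained after CCI, while 0.75% of all regions were gained. At an unadjusted p below 0.05, 93 were higher (29.0%, against 8.59% of all regions) and 0 were lower. In 66 every CCI library lay above every naïve library (20.6%, against 3.85%). The median log2 fold change of the 321 after CCI was 0.30, with 290 above 0, against -0.04 over all regions. Both comparisons use the same 3 naïve libraries, so neither the counts nor the medians are independent of the selection.

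That sharing could be taken out of the comparison. In regions selected for CFA without naïve replicate 1, the CCI mean exceeded that library by a median of 0.04 (n = 193 regions), without replicate 2 by 0.18 (n = 138) and without replicate 3 by 0.01 (n = 316). All regions had medians of -0.04, -0.04 and -0.05 in the same comparisons. The share of regions in which the CCI mean was the higher was 52.8%, 63.0% and 50.3%, against 45.8%, 45.2% and 43.9% of all regions. Against all 3 naïve libraries the same sets of regions had median log2 fold changes after CCI of 0.35, 0.40 and 0.27, each larger than against the unused library.

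Single CCI libraries differed in how far they rose at the 321 regions. Their median difference from the naïve mean was 0.28 in replicate 1, 0.15 in replicate 2, 0.29 in replicate 3, 0.37 in replicate 4, 0.49 in replicate 5 and 0.33 in replicate 6. CCI replicates 1 and 2 were sequenced in 2 runs, as were the naïve and CFA libraries, and replicates 3 to 6 in 1 run. The median of the first pair together was 0.20 and that of the other 4 together was 0.36, so the difference was smaller in the libraries sequenced like the controls, and its relation to the sequencing was not tested.

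The 21 regions gained in both comparisons were mostly faint in naïve ganglia: 19 lay in the lowest quartile of naïve coverage. Outside the group on chromosome 8 the other 17 had log2 fold changes of 0.67 to 1.31 after CFA and 0.71 to 1.79 after CCI, and over all 21 the CCI value was the larger in 17. The 2 comparisons differed in spread and in the fold change that passed the threshold, and the relation of either to this count was not tested. Over all regions the median SD was 0.32 over the CCI and 0.24 over the CFA libraries. The smallest log2 fold change among gained regions was 0.65 after CCI and 0.46 after CFA. Only the 4 regions beside the Vom2r genes passed an adjusted limma p of 0.05 in the CCI table, and the highest adjusted p among the 21 was 0.110. Gene names here are those the study lists as nearest, and nearness does not show that a region acts on the gene.

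**Figure D5:**
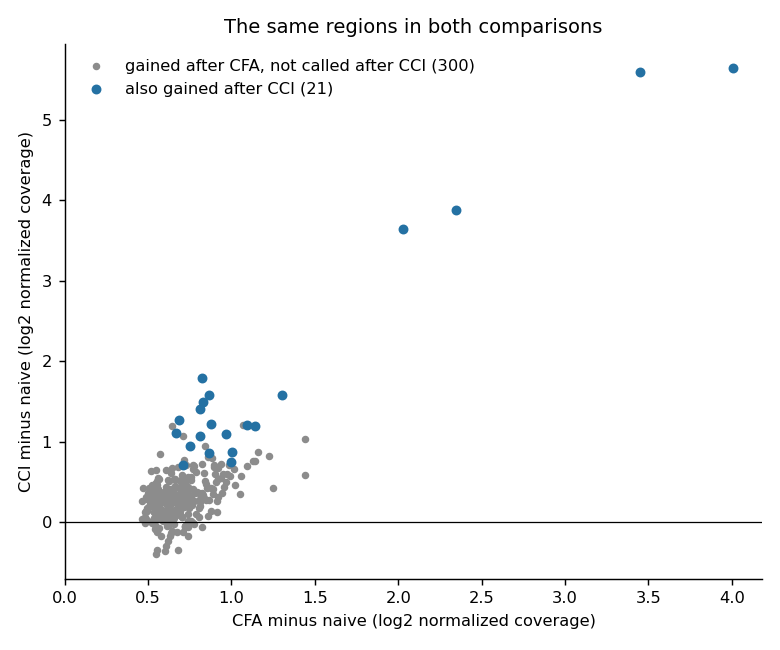
Log2 fold change after CFA (horizontal) and after CCI (vertical) of the 321 regions gained after CFA, with the 21 also gained after CCI in blue; both use the same 3 naïve libraries. The 4 regions beside Vom2r17 and Vom2r18 lie far to the upper right, and the others crowd between 0.46 and 1.44 after CFA.

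The most open of the 21 lay nearest Cp, which encodes ceruloplasmin, the copper-carrying ferroxidase of plasma, on chromosome 2 from 104740823 to 104741617. Its naïve libraries stood at 7.18, 7.14 and 7.06, and its CFA libraries ran from 7.64 through 7.80 to 7.94. The groups were well apart, with a log2 fold change of 0.67 ± 0.11 (SE) after CFA and 1.11 ± 0.19 (SE) after CCI, and the region stayed below the threshold in all 9 fits without 1 library.

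The region nearest Lpar1, a receptor for lysophosphatidic acid, lay on chromosome 5 from 75716406 to 75716663, with naïve coverage of 3.18, 3.6 and 3.47 and CFA coverage from 3.95 through 4.31 to 4.68. It rose by 0.88 ± 0.16 (SE) after CFA and 1.22 ± 0.22 (SE) after CCI. The region nearest Kif13b, a kinesin motor, lay on chromosome 15 from 48090366 to 48090685 and rose by 1.10 ± 0.19 (SE) and 1.20 ± 0.23 (SE). The region nearest Pcdh9, a protocadherin, lay on the same chromosome from 75876479 to 75876957 and rose by 0.82 ± 0.18 (SE) after CFA and 1.79 ± 0.27 (SE) after CCI. Transcripts of these 3 genes were present in the CFA ganglia, at 129 ± 7.31 CPM for Lpar1, 60.1 ± 4.95 for Kif13b and 62.2 ± 5.58 for Pcdh9 (SD, n = 2). No naïve RNA library was analysed here, so these are levels only.

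The region nearest Map2k5, a kinase of the ERK5 pathway, lay on chromosome 8 from 68261923 and rose by 0.81 after CFA and 1.07 after CCI, and that nearest Epha3, an ephrin receptor, on chromosome 11 from 1269991, by 0.69 and 1.26. The region nearest Cobl, an actin nucleator, on chromosome 14 from 93768297, rose by 1.0 and 0.75. Near the lectin gene Clec4m, on chromosome 12 from 3340812, the rise was 0.83 and 1.49, and near the olfactory receptor gene Olr1065, on chromosome 13 from 10820032, it was 0.86 and 1.58. The region nearest Slc46a3, a lysosomal transporter, on chromosome 12 from 8713579, rose by 1.31 and 1.58, the largest rise after CFA among the 21 outside the Vom2r group. These values are log2 fold changes in the CFA and then the CCI table.

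The remaining 4 lay nearest Slc24a5, a cation exchanger of pigment granules, on chromosome 3 from 117326358 (0.87 after CFA and 0.86 after CCI), Sh2d4a on chromosome 16 from 23432936 (0.71 and 0.71), LOC498155 on chromosome 12 from 17820620 (0.81 and 1.41) and LOC500846 (1.14 and 1.20). At the last, on chromosome 7 from 69057806 to 69058124, CFA a stood at 3.97, next to naïve replicate 1 at 3.87, while the other CFA libraries lay between 4.75 and 5.18. Of the 21, 5 passed the CFA threshold in all 9 fits without 1 library, namely the regions nearest Cp, Mtdh, Slc46a3 and Kif13b and the one from 4322772 beside Vom2r17. Another 10 passed it in at most 3 of those fits. These were the regions nearest Rrm2b, Arap2, Pcdh9 and Clec4m (3 fits each) and LOC498155 (2 fits). Those nearest Map2k5, Epha3, Olr1065 and LOC500846 and the one from 4337259 beside Vom2r17 passed in 1 fit each.

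At the other end were gained regions that did not rise after CCI. The lowest was on chromosome 3 from 111613104 to 111613548, with naïve coverage of 5.29, 5.30 and 5.51 and CFA coverage from 5.77 through 5.95 to 6.0 in the CFA table. In the CCI table its naïve libraries stood at 5.06, 5.08 and 5.27 and its CCI libraries ran from 4.02 through 4.81 to 5.16, a log2 fold change of -0.40 ± 0.25 (SE) that did not pass the test (unadjusted limma p = 0.125). Regions on chromosome 10 from 16182754 and chromosome 12 from 50291251 had -0.37 ± 0.23 (SE) and -0.35 ± 0.21 (SE). The highest after CCI among the regions not called there lay on chromosome 7 from 128417503 (1.21 ± 0.30), chromosome 15 from 5812645 (1.19 ± 0.31) and chromosome 8 from 104255333 (1.07 ± 0.28).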

How the data were processed

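The authors trimmed the reads, aligned them to rn6 with Bowtie2, removed reads of mapping quality under 10 and duplicates, shifted read ends for Tn5, downsampled, called MACS2 peaks per sample, and joined peaks found in at least 50% of a group's samples into consensus regions. The values the authors deposited are log2 normalized coverage per region. All columns of a table share 1 distribution, as after quantile normalization, so the tables do not show the depth of each library and a global change in accessibility could not appear. The RNA files deposited by the authors hold raw counts per Ensembl gene (10520647 and 28825688 counts), expressed here as CPM. Each table was fitted separately with limma 3.58.1 in R 4.3.3 (group as the only term, default prior). No filter or covariate was used. Positions are rn6 as deposited.

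The regions and lists were chosen with earlier results of these data known. Regions given singly (49 gained regions) followed a fixed rule: the cloned regions, those gained in both tables, extremes of p, fold change, width, naïve coverage, CFA spread and CCI fold change, the threshold's neighbours, and groups of 3 or more within 100 kb. Alternatives were other priors, weights, normalizations, thresholds and left-out libraries. The neighbour comparison, the re-selection features and the unused-library comparisons were added after seeing the data. Labels pair no rats between groups, and deviations of same-numbered CCI and naïve libraries had correlations of -0.03, 0.04 and -0.02. The exact permutation test over 84 splits cannot go below 0.0119. Only the limma fit in its default setting was tested on simulated data.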

Additional observations from a re-analysis of the deposited data

Results flagged for a closer look

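Among the 98 groups of 6 values examined (49 regions in each table), 9 held a library far from the other 5, and chance gives about 1 such group in 20. The regions were chosen in part for their spread over CFA libraries, and neighbours of 1 group are counted singly, so the number is not set against that rate. CFA replicate 3 was the low library in 4 of them: at 5.18 on chromosome 1 from 85168437 to 85168681 (next library 5.63), at 4.43 at the Slc46a3 region on chromosome 12 from 8713579 to 8713997 (next 4.97), and at 2.63 and 1.21 at the regions on chromosome 8 from 4292048 and from 4337259 (next 5.22 and 4.49). CFA a was low at 3.76 on chromosome 16 from 3655944 to 3656126 (next 4.24) and at 3.97 at the LOC500846 region on chromosome 7 from 69057806 (next 4.75). CFA replicate 4 was low at 8.21 on chromosome 3 from 171504378 to 171504858 (next 8.49).

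In the CCI table, CCI replicate 2 was low at 6.82 on chromosome 1 from 217129209 to 217130108 (next 7.35) and CCI replicate 4 at 4.67 on chromosome 6 from 107364509 to 107364914 (next 5.22).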

How the results depend on the processing

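Of the 321 regions, 305 were gained with a robust prior, 304 after cyclic loess, 314 with 15 libraries normalized together and 238 with sample weights. At an adjusted limma p below 0.05, 3716 regions passed in either direction with an intensity trend and 634 among the upper 75% by level, against 0 in the other fits of all libraries. The number gained became 1203 with an intensity trend (245 of the 321 among them), 156 and 2000 at p below 0.0005 and 0.01, and 788 at an adjusted p below 0.1. Leaving out 1 library gave 138 (naïve replicate 2) to 316 regions (naïve replicate 3), with 193, 204, 197 and 176 without naïve replicate 1, CFA b, CFA replicate 3 and CFA replicate 5 and 212 without CFA replicate 4. The median log2 fold change of the chosen regions, taken from the fit of all 9 libraries, was then 0.64 to 0.73 after CFA, their median width 375 to 538 bp, and 9 to 72 lay within 100 kb of another. It was 0.53 at p below 0.01 and 0.48 with the trend, where the width was 837 bp. Within 100 kb lay 15, 973 and 584 regions at p below 0.0005, at p below 0.01 and with the trend, and 26 and 162 of the 321 lay within 10 and 1000 kb. The causes were not tested.

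Of the 321, 5 were gained after CCI among the upper 75% of regions by level, where fewer were tested, 50 at p below 0.01, 11 with only the CCI libraries of 2 runs, and 14 to 21 when 1 library was left out. With a replicate block over CCI and naïve replicates 1 to 3 the number was 11, against 13 in the same 6 libraries without the block, and these numbers mark no shared animal.

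Among the single regions, the sign after CCI turned at 5, with differences near 0. On chromosome 1 from 217129209 it was -0.0028 with sample weights, -0.0224 with the replicate block, -0.18 with CCI libraries of 2 runs, and -0.0462 to 0.19 without 1 library. On chromosome 10 from 40758894 it was -0.25 to 0.0079 without 1 library, and from 40762384 it was 0.0014 with the replicate block and 0.28 with libraries of 2 runs. On chromosome 17 from 5921095 it was 0.037 with the replicate block, 0.0209 with libraries of 2 runs and -0.13 to 0.0665 without 1 library. On chromosome 5 from 148265847 it was -0.27 with the replicate block, -0.35 with libraries of 2 runs and -0.0411 to 0.16 without 1 library. After CFA the sign of the 49 regions held under the alternatives run for each. At none of them did a CFA library lie below a naïve library. Leaving out or weighting libraries could therefore not turn the sign, and its holding there is no test.

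The depth of each ATAC-seq library is not in the tables, and naïve replicates number 3, so each weighs heavily. Of the regions called, 48.9% to 50.9% were gained in the 8 settings of prior, weights, normalization, filter and unadjusted p for which both directions were counted, in tables whose columns share 1 distribution.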
